A study of Mus musculus with 42 samples.

Results

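RNA that anti-HA beads bring down from mouse embryonic stem cells without any HA tag is the background of this RNA immunoprecipitation series. It was measured in experiment 1 in 3 bead-bound (IP) and 3 input libraries of untagged cells, chosen by their titles, which make 6 of the 42 libraries. The untagged cells are 129S6/SvEvTac embryonic stem cells with the yGlob [GFP_5xT71BS] reporter and stably transfected FLAG-Cas9::T2A::Blasticidin, and every other line of the series shares this background. The tagged cells, used below for 1 comparison, carry HA-AVI-Tnrc6a in addition. All lines were grown on gelatin in medium with serum and LIF, the cytokine that keeps such cells undifferentiated. The labels name replicates by number only and do not say whether these were separate cultures. The p-values for IP against input rest on a spread pooled over all groups of the experiment, not on the untagged libraries alone. In experiment 1 those groups include tagged cells and tagged Trim71 knockout cells. The pooled spread may be technical.

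In an RNA immunoprecipitation, an antibody on beads captures a protein from a lysate together with the RNA bound to it. RNA can also reach the beads without the intended protein, by sticking to beads or plastic, through proteins that the antibody also recognises, or inside large assemblies that are pulled down. Mock samples from untagged cells measure all of these routes at once, and they do not separate them. HA is a short peptide from influenza haemagglutinin, and Tnrc6a is a GW182 protein that Argonaute proteins recruit to mRNAs.

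Total counts ran from 18635761 to 23657840 in the untagged inputs and from 15193818 to 17084468 in the IPs. Levels are given as CPM, counts relative to the library total, scaled by TMM, a normalization in which most genes are taken as equal between libraries. The 10 markers of embryonic stem cells summed to between 6621 and 6867 CPM in the inputs, while 8 markers of primitive endoderm summed to between 76.6 and 79.1. Of 7 fibroblast markers, 2 were measured, Col1a1 and Thy1, and they summed to between 20.4 and 22.7 CPM. In the IP these sums were 6697 to 6967, 86.7 to 95.6 and 14.9 to 20.5 CPM. IP replicate 2 stood apart from the other IPs. Over genes with at least 50 counts, the chi-square per gene was 15.9 and 13.2 for the pairs with IP replicate 2, 4.49 for IP replicates 1 and 3, and 2.87 to 3.55 between inputs. Results that rest on IP replicate 2 are given with and without it.

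A small set of mRNAs took a very large share of the IP counts, and losses of the named genes were shallow. Bcar1, the p130Cas adhesion docking protein, was alone 9.64%, 12.1% and 9.99% of all counts in the 3 IPs, against 0.00780% to 0.00904% in the inputs. The 26 genes called at least 16-fold higher took 18.3%, 22.7% and 18.8% of IP counts and 0.115% to 0.116% of input counts. On the loss side the strongest named gene, ND3 of the mitochondrial genome, was at 0.405 of its input level. Naming by size required a mean log2 CPM of at least 2, which leaves out scarcer genes. Over all genes tested, called or not, the lowest log2 change was -5.75.

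Of 18772 genes tested, 2273 were called at an adjusted p under 0.05 (edgeR quasi-likelihood test, Benjamini-Hochberg), which is 12.1%. Among them 1354 (7.21%) were higher in the IP and 919 (4.9%) were lower. All 3 IPs were above all 3 inputs for 18.4% of genes and below them for 20.2%. At least 2-fold changes were held by 331 genes higher (1.76%) and 46 genes lower (0.245%). Of the higher genes 101 reached 4-fold, 42 reached 8-fold, 19 reached 32-fold and 13 reached 64-fold. The median log2 change of all genes was -0.03. Scaling by library size alone moved that median to -0.42 and turned the split to 498 higher and 9703 lower. Changes below are relative to TMM. Leaving out IP replicate 2 gave 1370 calls, and leaving out input replicate 1, 2 or 3 gave 1431, 1446 and 1447. The genes called lower numbered 535 without IP replicate 1, and 501 to 550 without each of these 4 libraries in turn. A fit on the 6 untagged libraries alone gave 4612 calls among 17753 genes, with 396 of them at least 2-fold.

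**Figure D1:**
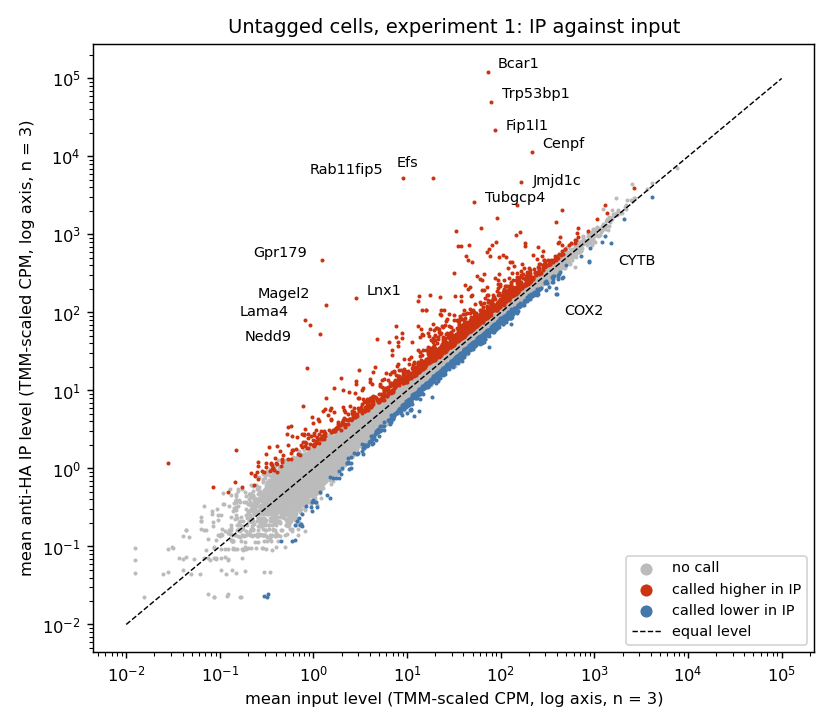
Mean level of each gene in the 3 anti-HA IPs against the 3 inputs of untagged cells, experiment 1, in TMM-scaled CPM on log axes, for genes with counts in both. Red points are genes called higher in the IP, blue points genes called lower, and Bcar1 lies farthest above the dashed line of equal level.

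All 4 genes of the Cas family were called higher. Cas proteins are scaffolds that are phosphorylated by Src kinases at focal adhesions and then bind the adaptor Crk. Bcar1 (ENSMUSG00000031955, chr8:111710474-111743849 in GRCm38) was at 79.1, 72.4 and 68.6 CPM in the inputs and at 108400, 145550 and 112890 CPM in the IPs. Its log2 change was 10.70 (SE 0.31, edgeR adjusted p 5.55e-18), and by the authors' RPKM values, which are per length, it stood at 16.1 ± 1.17 in input and 26861 ± 4452 in IP (SD, n = 3). Efs, the family member also known as Sin, was at 18.2, 19.1 and 19.6 CPM in the inputs and at 5008, 6290 and 4718 CPM in the IPs, a log2 change of 8.14 (SE 0.28, adjusted p 4.82e-16). Nedd9, the third Cas protein, was scarce in input at 0.777, 1.06 and 0.897 CPM. In the IPs Nedd9 was at 60.1, 80.5 and 65.6 CPM, a log2 change of 6.24 (SE 0.32, adjusted p 6.30e-13). For all 3 genes every IP lay far above every input. Cass4, the fourth member, changed least, from 2.59, 2.63 and 2.64 CPM to 5.18, 4.37 and 4.36 CPM (log2 0.82, SE 0.22, adjusted p 0.0163). That call was lost on leaving out any 1 of the inputs or IP replicate 1, with adjusted p from 0.0544 to 0.0756, and with library size alone, with 0.11.

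Most partners of Cas proteins were not called. Of 18 Cas and Crk adhesion signalling genes, 6 (33.3%) were higher, against 7.21% of all genes, and 0 lower, with a median log2 change of 0.15. The list includes the 4 Cas genes and was chosen with earlier results of these data known, so its share is not independent of them. With library size alone 5 were higher and 9 lower, and the median was -0.25. At an unadjusted p under 0.05 edgeR had 1 gene lower, and DESeq2 at its adjusted p called 0 lower. Besides the 4 Cas genes, the members called higher were Yes1, a Src-family kinase, and Tln1, which encodes talin and links integrins to actin. Yes1 went from 45.4, 45.9 and 50.2 CPM to 79.2, 83.3 and 75.4 CPM (log2 0.75, SE 0.09, adjusted p 4.32e-06). Tln1 was at 109.9, 107.0 and 111.3 CPM in input and at 176.6, 231.1 and 178.8 CPM in IP (log2 0.84, SE 0.14, adjusted p 0.000128). The IP and input libraries did not overlap for either gene. Crk, at log2 -0.09, Ptk2, the focal adhesion kinase, at -0.10, and Src itself, at -0.24, did not pass the test.

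The other mRNAs with the largest gains encode proteins of several kinds. Trp53bp1 encodes 53BP1, a chromatin protein of the response to DNA breaks, and lies at chr2:121194835-121296354. Its level was 80.1, 75.3 and 81.6 CPM in the inputs and 45167, 59353 and 46040 CPM in the IPs, a log2 change of 9.31 (SE 0.18, adjusted p 1.92e-21). Fip1l1, a subunit of the mRNA cleavage and polyadenylation machinery, went from 85.4, 85.8 and 89.3 CPM to 19422, 25406 and 20653 CPM (log2 7.97, SE 0.51, adjusted p 3.66e-11). Cenpf, a large coiled-coil protein of kinetochores, was at 212.5, 215.3 and 215.9 CPM in input. Its IP level was 10466, 13305 and 10488 CPM (log2 5.73, SE 0.16, adjusted p 4.66e-18). Together with Bcar1 these were the mRNAs with the largest shares of the IP libraries.

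Rab11fip5, a Rab11 effector of recycling endosomes, rose from 9.39, 9.66 and 8.31 CPM to 5053, 6210 and 4642 CPM (log2 9.18, SE 0.38, adjusted p 1.07e-14). Several captured mRNAs had few counts in input. Gpr179, an orphan receptor of retinal bipolar cells, was at 1.26, 0.924 and 1.51 CPM in input and at 403.3, 543.1 and 446.2 CPM in IP (log2 8.55, SE 0.36, adjusted p 1.49e-14). Lama4, a laminin chain of vessel basement membranes, was at 0.887, 0.924 and 0.614 CPM in input and at 65.4, 87.0 and 88.1 CPM in IP (log2 6.61, SE 0.29, adjusted p 2.27e-14). Magel2, an imprinted MAGE gene, was at 1.22, 1.71 and 1.18 CPM in input and at 102.8, 138.6 and 130.8 CPM in IP (log2 6.50, SE 0.40, adjusted p 1.73e-11). No IP of these genes came near an input.

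Lnx1 and Tubgcp4 complete the 12 largest gains, and both overlap stronger genes. Lnx1, a ubiquitin ligase that binds Numb, shares 6344 bases of its span with Fip1l1 in RefSeq GRCm38.p6. It was at 3.25, 3.19 and 2.08 CPM in input and at 135.7, 175.6 and 141.9 CPM in IP (log2 5.72, SE 0.38, adjusted p 7.16e-11). Tubgcp4, a subunit of the gamma-tubulin ring complex, shares 3936 bases with Trp53bp1 and went from 51.1, 50.8 and 52.7 CPM to 2299, 3096 and 2418 CPM (log2 5.66, SE 0.13, adjusted p 4.60e-20). Map1a shares 6765 bases with the other end of Trp53bp1 and was not called, at log2 -0.40 (adjusted p 0.109). The microRNA gene Mir705 lies inside Rab11fip5, had 0 mean CPM in input and 4.08 CPM in IP. How the counting treated overlap and strand is not given in the sources used here, so the values of Lnx1, Tubgcp4 and Mir705 are uncertain.

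Jmjd1c, a member of the KDM3 family of histone demethylase-like proteins, was among the 10 genes with the largest shares of the IPs. It went from 165.0, 165.4 and 168.6 CPM to 4183, 5441 and 4584 CPM (log2 4.83, SE 0.31, adjusted p 4.79e-11). Eef1a1 and Hsp90ab1 also stood among these 10 but did not change past the test. Eef1a1, the translation elongation factor, was at 7780, 7491 and 7750 CPM in input and 7282, 6538 and 7283 CPM in IP (log2 -0.13, SE 0.13, adjusted p 0.607). Hsp90ab1, a cytosolic chaperone, was at 0.16 (SE 0.12, adjusted p 0.423).

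**Figure D2:**
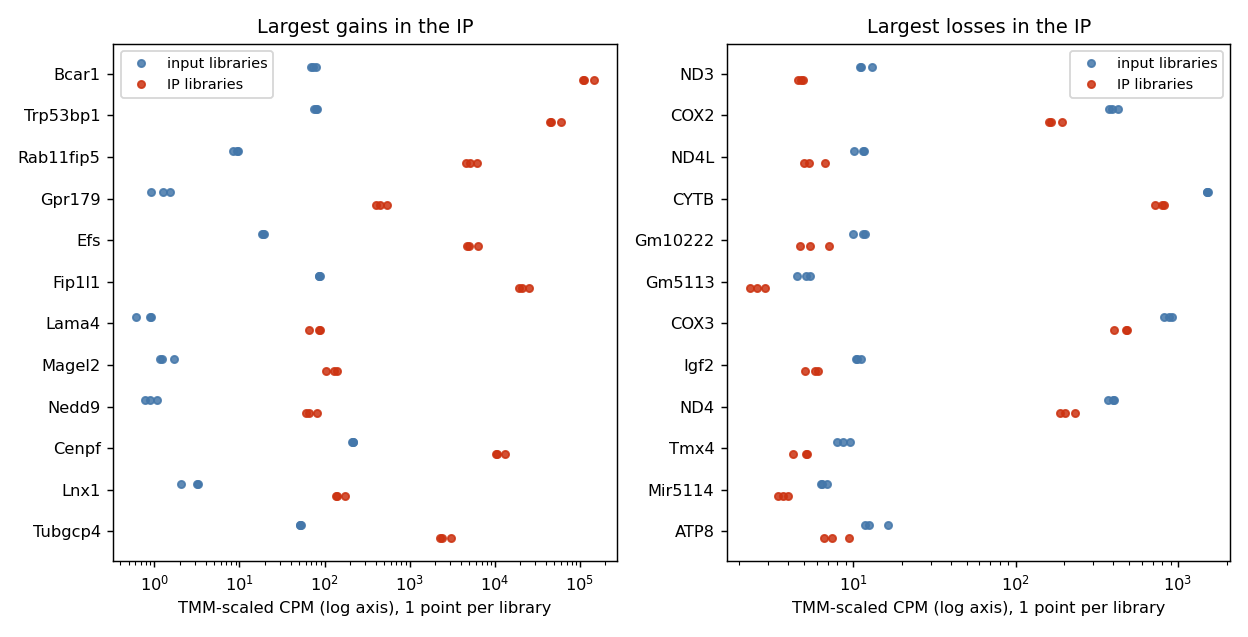
Levels of the 12 genes with the largest gains (left) and the 12 with the largest losses (right) in each of the 3 input (blue) and 3 IP (red) libraries of untagged cells, in TMM-scaled CPM on log axes. Gains span 50.5-fold to 1666-fold while losses stay between 0.405 and 0.572 of input, and within each gene the IP and input libraries do not overlap.

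A separate set of captured mRNAs encodes giant proteins of the cytoskeleton. Of 21 actin, myosin and giant cytoskeletal genes, 10 (47.6%) were higher, against 7.21% of all genes, and 0 lower. The list's median log2 change was 0.30. With library size alone 9 were higher and 8 lower, with a median of -0.09. An unadjusted p under 0.05 was reached by 1 lower gene in edgeR, and DESeq2 called 12 higher and 0 lower. The 10 were those for spectrins, filamins, plakins and utrophin, which crosslink actin or tie it to membranes and microtubules, and for dynein heavy chain. Genes for the filament subunits themselves were not called: Actb was at log2 -0.04, Actg1 at -0.08, Tubb5 at 0.10 and Tuba1b at 0.08, and Myh9, non-muscle myosin, at -0.24.

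The size of these gains differed between the IPs. Sptbn1, beta-spectrin, was at 44.4, 46.9 and 45.5 CPM in the inputs and at 363.6, 1279 and 573.6 CPM in IP replicates 1, 2 and 3 (log2 4.02, SE 0.37, adjusted p 3.08e-08). Flna, a filamin, was at 96.6, 99.1 and 93.5 CPM in input and at 186.6, 961.2 and 375.9 CPM in IP (log2 2.40, SE 0.33, adjusted p 1.32e-05). In all 10 genes IP replicate 2 was the highest IP and IP replicate 1 the lowest, and each IP was above each input.

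Plec, which encodes plectin, went from 41.9, 44.3 and 38.6 CPM to 123.7, 355.2 and 187.8 CPM (log2 2.42, SE 0.29, adjusted p 1.67e-06). Macf1 and Dst, the other plakins of the list, had log2 changes of 2.36 and 1.98, and Sptan1, alpha-spectrin, had 2.11. Dync1h1 at 0.87, Utrn at 0.81 and Flnc at 0.70 were also called. Without IP replicate 2, 9 of the 21 genes were called and the median was 0.24, and Flnc was no longer called (0.28, adjusted p 0.238). The Flnc call was also lost without input replicate 1 (adjusted p 0.0525) and input replicate 2 (adjusted p 0.0546). With IP replicate 2 left out, the log2 changes of Sptbn1 and Flna were 3.35 and 1.54. Those of Plec, Macf1 and Sptan1 were then 1.90, 1.79 and 1.77, and those of Dync1h1 and Utrn were 0.69 and 0.63. By contrast the 12 largest gains varied by only 1.27 to 1.35 times between the highest and the lowest IP.

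**Figure D3:**
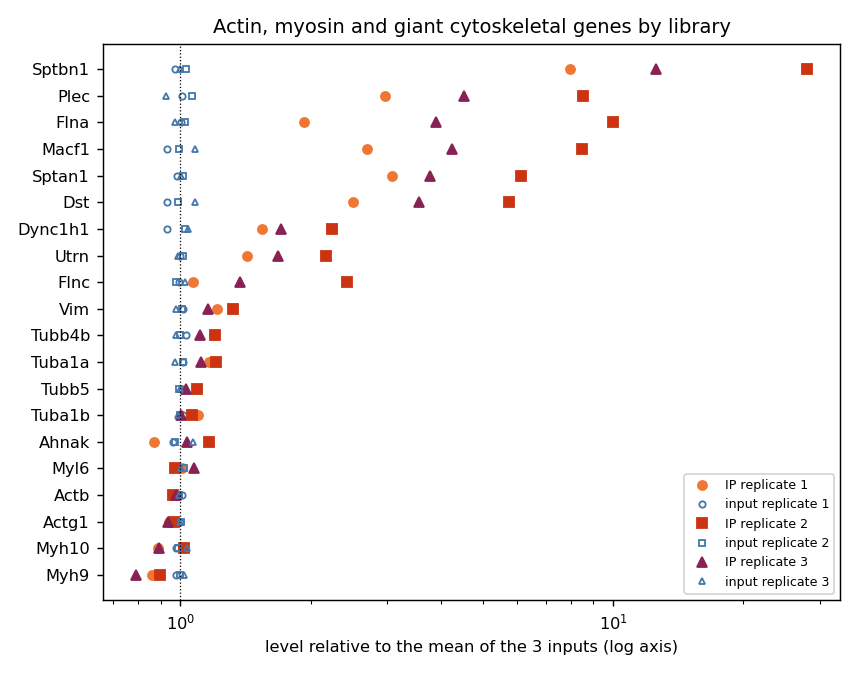
Levels of 20 of the 21 actin, myosin and giant cytoskeletal genes in each library of untagged cells, relative to the mean of the 3 inputs, on a log axis. Filled symbols are IPs, with squares for IP replicate 2, and open symbols are inputs; the 9 genes at the top have replicate 2 as the highest IP.

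Small nucleolar RNAs, which guide chemical modification of ribosomal RNA, leaned upward. In the list of 37 small nucleolar and spliceosomal RNAs 7 (18.9%) were higher, against 7.21% of all genes, and 0 lower. The median log2 change was 0.54. There was 1 lower at an unadjusted p under 0.05 by edgeR, and DESeq2 called 6 higher and 0 lower. Snord47 was at 0.555, 0.832 and 0.897 CPM in input and at 2.96, 2.82 and 2.55 CPM in IP (log2 1.87, SE 0.43, adjusted p 0.00455). Snord32a was at 1.07, 0.693 and 0.850 CPM in input and at 2.74, 2.68 and 2.82 CPM in IP (log2 1.63, SE 0.34, adjusted p 0.00222). Many such RNAs lie within introns of host genes, and reads of the 2 may not be told apart in these counts. Leaving out IP replicate 2 left 5 of the 7 called.

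Host transcripts of nucleolar RNAs and a nuclear RNA were also higher. Of 13 measured nuclear and structural non-coding RNAs, 4 (30.8%) were higher, against 7.21% of all genes, and 0 lower. The median was 0.18, or -0.22 with library size alone. DESeq2 also called 4 higher and 0 lower, and edgeR had 1 lower at an unadjusted p under 0.05. Gas5, a host gene of several box C/D RNAs, went from 278.1, 281.3 and 303.3 CPM to 463.3, 494.9 and 464.3 CPM (log2 0.72, SE 0.12, adjusted p 0.000133). Snhg1, another host, went from 73.6, 74.2 and 84.3 CPM to 125.9, 149.4 and 147.2 CPM (log2 0.86, SE 0.11, adjusted p 7.96e-06). Malat1, a nuclear speckle RNA, went from 123.2, 106.7 and 122.4 CPM to 162.7, 201.5 and 202.5 CPM (log2 0.69, SE 0.11, adjusted p 9.68e-05). No IP overlapped an input for these 3 RNAs. Snhg12 was called at 0.36, but with library size alone its sign turned, to -0.03, and the call was lost without any 1 of the inputs and without IP replicate 1 or 2.

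Among the lists, the mitochondrial one had the largest share of members called lower, 69.2%, against 4.9% of all genes. Of 13 mitochondrially encoded mRNAs, which encode core subunits of the respiratory chain, 9 were lower and 0 higher, with a median log2 change of -0.81. DESeq2 called 9 lower and 1 higher, and at an unadjusted p under 0.05 edgeR had 2 higher. COX2, a subunit of complex IV, was at 390.6, 375.4 and 425.6 CPM in input and at 160.7, 166.3 and 193.3 CPM in IP (log2 -1.20, SE 0.18, adjusted p 4.68e-05). CYTB, of complex III, was at 1521, 1511 and 1510 CPM in input and at 791.7, 720.9 and 818.2 CPM in IP (log2 -0.96, SE 0.19, adjusted p 0.00109). ND3, of complex I, was at 11.1, 11.0 and 13.2 CPM in input and at 4.81, 4.93 and 4.56 CPM in IP (log2 -1.30, SE 0.16, adjusted p 2.20e-06). For each of these the highest IP was below the lowest input.

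COX1, of complex IV, went from 4186, 3969 and 4202 CPM to 2893, 3187 and 2970 CPM (log2 -0.45, SE 0.12, adjusted p 0.0114, or 0.0503 without IP replicate 1). ND4L, COX3, ND4, ATP8 and ATP6 had log2 changes between -0.97 and -0.70. Gm10222, a nuclear pseudogene, had values near those of ND4L, and ENSMUSG00000101939 and ENSMUSG00000102070, which have no symbol in the table, had values near those of ND3 and COX2. Their reads may not be separable from those of the mitochondrial genes, so these 3 rows are uncertain. Nuclear genes for the same respiratory chain did not follow. Of 73, 6 (8.22%) were higher, near the 7.21% of all genes. None was called lower (3 at an unadjusted p under 0.05 by edgeR, 0 called by DESeq2) and the median was -0.03. With library size alone 2 were higher and 50 lower, with a median of -0.43.

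In 3 lists of membrane and secretory proteins more genes were lower than higher. Of 242 solute carrier genes, which encode membrane transporters, 49 (20.2%) were lower, against 4.9% of all genes, and 7 were higher. Their median log2 change was -0.24. Leaving out each untagged library in turn gave 28 to 40 lower and 2 to 7 higher, with 28 lower without input replicate 2 or IP replicate 1 and 29 without input replicate 3 or IP replicate 2. The list's median stayed between -0.27 and -0.25, and library size alone gave 172 lower and 3 higher. Slc12a5, a neuronal chloride transporter, was at 3.33, 3.61 and 4.15 CPM in input and at 1.85, 2.04 and 2.08 CPM in IP (log2 -0.88, SE 0.22, adjusted p 0.0101). Slc35b3, a Golgi carrier of the sulfate donor PAPS that the list's name pattern leaves out, went from 8.58, 9.85 and 9.30 CPM to 27.2, 25.9 and 23.1 CPM (log2 1.46, SE 0.13, adjusted p 1.20e-08). Slc22a17, a member of the list, was higher at log2 1.24 (adjusted p 8.97e-07), and it lies 3411 bases from Efs.

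Of 49 collagen, laminin and integrin genes, 8 (16.3%) were lower, against 4.9% of all genes, and 2 (4.08%) higher, with a median of -0.20. Col4a1, a basement membrane collagen, went from 108.0, 117.5 and 106.7 CPM to 71.1, 81.2 and 77.4 CPM (log2 -0.53, SE 0.13, adjusted p 0.00633). Col4a2, its partner chain, went from 47.2, 52.9 and 51.5 CPM to 29.7, 43.3 and 30.0 CPM (log2 -0.56, SE 0.13, adjusted p 0.00497). The genes that went up were Lama4 and Lama3, the latter at 1.66 (SE 0.18, adjusted p 3.97e-07). The list's count turned on single libraries. Without IP replicate 1 it had 2 genes lower, 2 higher and a median of -0.04, and without IP replicate 2 it had 13 lower and a median of -0.36. Leaving out input replicate 1, 2 or 3 or IP replicate 3 gave 6, 5, 4 and 5 lower, and library size alone gave 27.

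Among 18 endoplasmic reticulum chaperones and stress genes, 5 (27.8%) were lower, against 4.9% of all genes, and 1 higher, with a median of -0.22. Canx, the lectin chaperone calnexin, went from 260.8, 249.9 and 271.8 CPM to 178.1, 216.9 and 199.0 CPM (log2 -0.40, SE 0.09, adjusted p 0.0055). P4hb, the disulfide isomerase PDI, was at -0.38 (SE 0.11, adjusted p 0.0327), and the other called losses were Pdia4, Pdia6 and Dnajb11. Without IP replicate 1 none of these 4 was called (adjusted p 0.14 for P4hb, 0.0604 for Pdia4, 0.193 for Pdia6 and 0.11 for Dnajb11). P4hb was also lost without input replicate 2 or 3 or IP replicate 3, Pdia6 without any 1 of the inputs, and Dnajb11 without any 1 of the 6 libraries. Sdf2l1, a small stress-induced protein of the same organelle, was higher at 0.91 (SE 0.10, adjusted p 9.91e-07). The list had 3 genes lower without input replicate 1 or IP replicate 3, 2 without input replicate 2 or 3, 1 without IP replicate 1 and 16 with library size alone. The 3 lists of membrane and secretory proteins had medians below that of all genes, also with RLE size factors. Without IP replicate 1 the median of collagen, laminin and integrin genes, -0.036, was above that of all genes, -0.042.

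**Figure D4:**
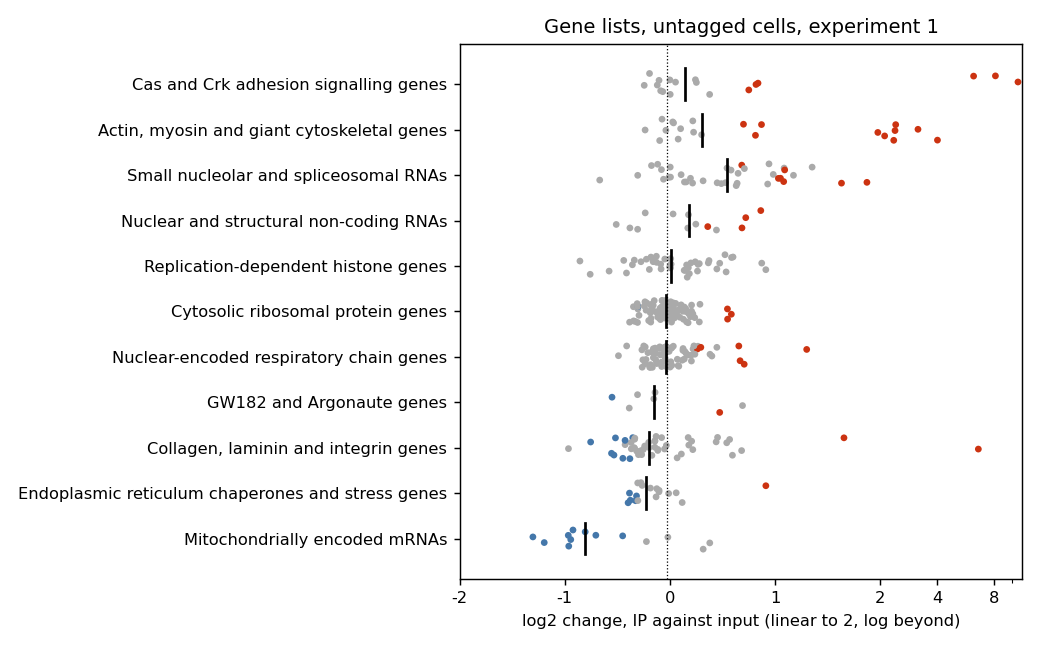
Log2 change of IP against input for each member of 11 gene lists in untagged cells of experiment 1, linear to 2 and logarithmic beyond. Red and blue points are genes called higher and lower, black bars are list medians and the dotted line is the median of all genes; the mitochondrial list lies lowest, with a median of -0.81, and the Cas genes reach farthest to the right.

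Several abundant classes stayed near the median of all genes. None of 43 replication-dependent histone genes was called by edgeR, with a median of 0.01 (-0.38 with library size alone). In that list 4 genes had an unadjusted p under 0.05, and DESeq2 called 1. Of 89 cytosolic ribosomal protein genes, 3 (3.37%) were higher and 1 (1.12%) lower, against 7.21% and 4.9% of all genes. Their median was -0.04, and library size alone gave 0 higher and 57 lower. Rpl4, of the large subunit, went from 2673, 2672 and 2684 CPM to 3926, 3890 and 3927 CPM (log2 0.55, SE 0.13, adjusted p 0.00723), and Rps3 and Rps27l were at 0.55 and 0.58. The gene called lower was Rpl29, at -0.30 (adjusted p 0.0253), a call lost without input replicate 1 or any 1 of the IPs. Among 384 zinc finger genes with Zfp names, which include repressors of the KRAB family, 33 (8.59%) were higher and 14 (3.65%) lower. These shares were near the 7.21% and 4.9% of all genes, and the list's median was -0.04. Leaving out each untagged library in turn gave 21 to 25 higher and 7 to 11 lower, and library size alone gave 9 higher and 220 lower. Zfp697 led these, from 0.924, 0.971 and 1.65 CPM to 48.5, 62.3 and 48.0 CPM (log2 5.50, SE 0.20, adjusted p 6.99e-16). Near-identical members of this family may share reads.

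The genes of the silencing pathway under study came next. Tnrc6a, which encodes the protein tagged in other lines, was at 104.9, 97.4 and 103.5 CPM in input and at 89.6, 94.0 and 93.7 CPM in IP (log2 -0.14, SE 0.17, adjusted p 0.668). Trim71, a stem cell RNA-binding protein, went from 214.6, 226.6 and 230.7 CPM to 178.1, 171.0 and 183.3 CPM (log2 -0.34, SE 0.09, adjusted p 0.0116, or 0.0527 without IP replicate 2). Ago2, the slicing Argonaute, went from 355.9, 346.3 and 371.3 CPM to 245.5, 227.8 and 259.5 CPM (log2 -0.55, SE 0.18, adjusted p 0.0411). That call was lost on leaving out any 1 of the 6 untagged libraries, with adjusted p up to 0.133. Ago3 was higher at 0.47 (adjusted p 0.0383), a call lost without any 1 of the inputs or IP replicate 2 or 3 and with library size alone, and Tnrc6b, Tnrc6c, Ago1 and Ago4 were not called.

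Of the remaining lists, 1 of 16 immediate early genes (6.25%) was higher, near the 7.21% of all genes. This was Myc at 0.62 (SE 0.11, adjusted p 0.000653, or 0.0897 with library size alone). Of 10 stem cell markers 1 was called, and Utf1, a chromatin-bound pluripotency factor, was higher at 0.97 (SE 0.11, adjusted p 8.05e-07). Of 8 markers of primitive endoderm 1 was higher and 1 lower, with a median of 0.01. Of all genes 7.21% were higher and 4.9% lower, so single calls in lists this small say little about the lists. Dab2, an endocytic adaptor, went from 17.5, 17.3 and 16.9 CPM to 34.8, 38.5 and 31.9 CPM (log2 1.02, SE 0.12, adjusted p 1.28e-06). Cubn, which encodes the endocytic receptor cubilin, went from 13.7, 14.6 and 13.2 CPM to 8.06, 9.65 and 9.25 CPM (log2 -0.62, SE 0.19, adjusted p 0.0338), a call lost on leaving out any 1 of the 6 libraries. Thy1, of the fibroblast markers, was lower at -0.39 (adjusted p 0.0402), a call lost without any 1 of the libraries except IP replicate 2. Losses outside the mitochondrial genes included Igf2, the imprinted growth factor, from 11.2, 10.5 and 10.5 CPM to 5.84, 6.06 and 5.10 CPM (log2 -0.92, SE 0.17, adjusted p 0.000601). Tmx4, a thioredoxin-like membrane protein, was at -0.85 (adjusted p 0.00119), the non-coding Gm5113 at -0.96 (adjusted p 0.00101) and Mir5114 at -0.83 (adjusted p 0.034), the last a call lost on leaving out any 1 of the 6 libraries.

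Length and gene class were not used in the test. Spearman's rho between gene length and log2 change was -0.015 over 18772 genes. Calls of both signs were nevertheless more frequent in long genes, with 4.15% higher and 2.13% lower among the 3755 shortest genes and 12.3% higher and 6.74% lower among the 3755 longest. The median input level of these classes was 2.38 and 30.0 CPM, and its part in this was not tested. Genes called at least 2-fold higher had a median length of 4468 bases, against 3459 for all genes. By RefSeq class, 19 of 82 small nucleolar RNA genes (23.2%) were higher and 0 lower (1 at an unadjusted p under 0.05 by edgeR, 0 called by DESeq2). Of 13928 protein-coding genes 1120 (8.04%) were higher, against 7.21% of all genes tested.

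The untagged cells of experiment 2 show which captures recurred. The p-values for IP against input in experiment 2 rest on a spread pooled over all groups of that experiment. Those groups include tagged cells, tagged Trim71 knockout cells and tagged Ago2 knockout cells. In the untagged cells of experiment 2, 144 of 19778 genes were called, or 0.728%, with 89 higher (0.45%) and 55 lower (0.278%). Leaving out input replicate 2 gave 70 calls there, IP replicates 1, 2 and 3 gave 84, 220 and 82. The 2 experiments share no library. Among genes tested in both, 74 were higher in both, which is 5.50% of the experiment 1 set and 86.0% of the experiment 2 set, and 18 were lower in both (1.96% and 32.7%). Of 323 genes at least 2-fold higher in experiment 1 that were tested in experiment 2, 60 were called higher there and 241 had a positive change, with a median of 0.24. Over 18553 genes the changes of the experiments had a Pearson r of 0.377 and a Spearman rho of 0.170, given as a description.

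The largest captures recurred at lower levels. Of the 12 largest gains 11 were called higher in experiment 2, with Lama4 at log2 1.95 (adjusted p 0.0946) as the exception. Bcar1 was at 62.9, 73.2 and 73.8 CPM in the experiment 2 inputs and at 27700, 5765 and 20836 CPM in the IPs (log2 8.01, SE 0.47, adjusted p 1.44e-11). The highest and lowest IPs of experiment 2 differed by 3.41 to 5.62 times for these 12 genes, and its IP replicate 2 was the lowest for all 12. A test of the difference between experiments called 2066 of 18271 genes (11.3%), with 1245 changes higher in experiment 1 (6.81%) and 821 lower (4.49%).

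Some gains of experiment 1 were near 0 in experiment 2. The genes given here were chosen for the size of the difference between experiments, so their differences were selected to be large. Akap9, a giant scaffold of centrosomes and Golgi, went from 32.1, 36.0 and 36.4 CPM to 601.5, 820.3 and 715.2 CPM in experiment 1 (log2 4.35, SE 0.16, adjusted p 5.09e-16). In experiment 2 Akap9 was at 29.2, 33.7 and 27.7 CPM in input and at 33.0, 24.7 and 26.4 CPM in IP, a log2 change of -0.11, and the difference was 4.46 (SE 0.16, adjusted p 5.72e-13). Etl4, a homologue of the sickle tail gene of the notochord, changed by 4.28 and 0.32, with a difference of 3.95 (SE 0.28, adjusted p 1.37e-08). Cep350, a centrosomal protein, changed by 3.34 and 0.06, with a difference of 3.29 (SE 0.26, adjusted p 5.14e-08). For Akap9 the IP and input libraries overlapped in experiment 2, which they did not in experiment 1.

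The losses of mitochondrial messages were also set against experiment 2. None of the 13 was called there by edgeR or DESeq2, 1 had an unadjusted p under 0.05 by edgeR, and the median was -0.10. Of all genes tested in experiment 2, edgeR called 0.728%, with 0.45% higher and 0.278% lower. The chi-square per gene between its untagged IPs was 13.9 to 49.8. Counts of 0 in lists of this size therefore say little about recurrence. COX2 was at 571.2, 562.5 and 520.9 CPM in the experiment 2 inputs and at 573.6, 497.1 and 478.0 CPM in the IPs (log2 -0.10, SE 0.13, adjusted p 0.825), and the difference between experiments was -1.10 (SE 0.11, adjusted p 9.86e-07). COX3 differed by -1.01 (adjusted p 2.06e-06) and ND4 by -0.87 (adjusted p 5.06e-05). None of the 10 cytoskeletal genes was called in experiment 2 by edgeR or DESeq2, although 5 had an unadjusted p under 0.05 by edgeR, and the difference itself was called for 3 of the 10. Sptbn1 was at 546.5, 75.8 and 93.0 CPM in the experiment 2 IPs, so that there IP replicate 1 stood highest (log2 1.80, SE 0.53, adjusted p 0.121), and the difference did not pass the test (adjusted p 0.0572). Some other lists also had 0 genes called in experiment 2 by edgeR. Their medians there were -0.10 for small nucleolar and spliceosomal RNAs and -0.13 for nuclear and structural non-coding RNAs, of which DESeq2 called 1 lower. Solute carrier genes were at -0.03, collagen, laminin and integrin genes at -0.04, and endoplasmic reticulum chaperones and stress genes at 0.07. No difference test is given for these lists.

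Tagged cells of experiment 1 show how the same mRNAs behave when the beads have a target. There the difference in IP against input between tagged and untagged cells was called for 10688 of 18772 genes (56.9%), with 5276 higher with the tag (28.1%) and 5412 lower (28.8%). Tnrc6a itself went from a log2 change of -0.14 to 8.20, a difference of 8.34. The tagged libraries are separate from the untagged ones, but the difference uses the untagged values.

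The 12 largest gains were present in tagged cells at a smaller size, with log2 changes of 3.79 to 8.69. Bcar1 was at 65.7, 59.4 and 67.5 CPM in the tagged inputs and at 23310, 23384 and 33026 CPM in the IPs, a log2 change of 8.69 (SE 0.28), and it was 2.01%, 2.05% and 2.73% of all counts in those libraries. The difference from untagged cells was -2.01 (SE 0.29, adjusted p 3.23e-06). Trp53bp1 was at 81.0, 62.5 and 66.6 CPM in input and at 10898, 10345 and 12344 CPM in IP, with a difference of -1.99 (SE 0.18, adjusted p 1.26e-09). Of the 12 genes, 11 had a lower ratio in tagged cells by this test, and the differences of all 12 lay between -2.81 and -1.36. Every value is a share of a library, so amounts of RNA per bead cannot be read from it.

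**Figure D5:**
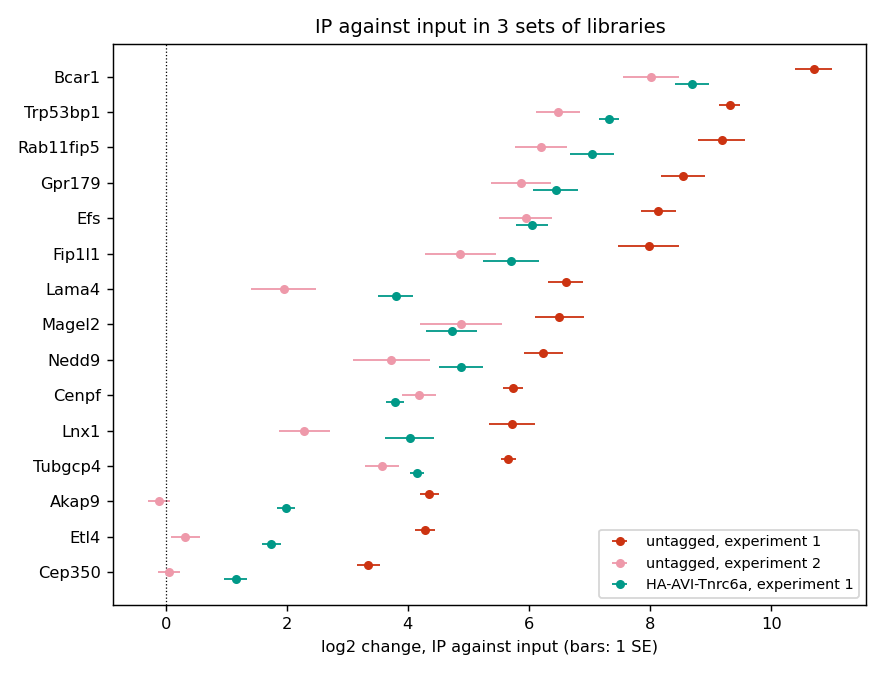
Log2 change of IP against input with 1 SE for the 12 largest gains and for Akap9, Etl4 and Cep350, in untagged cells of experiments 1 and 2 and in HA-AVI-Tnrc6a cells of experiment 1. Bcar1 is at 10.70, 8.01 and 8.69, and Akap9 at 4.35, -0.11 and 1.99.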

How the data were processed

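The libraries are stranded total RNA libraries of input and anti-HA bead-bound RNA. The authors deposited, per experiment, raw read counts for each gene together with RPKM values. Reads were demultiplexed with bcl2fastq 2.20 and aligned with STAR 2.7.3a to GRCm38/mm10, tools and builds named in the submitters' processing notes; the counting tool and its use of strand are not given in the sources used here. The RPKM values, deposited by the authors, were used only for levels per length of Bcar1.

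Libraries were grouped by title. Counts were tested with edgeR 4.0.16 (R 4.3.3) by quasi-likelihood after TMM scaling and filterByExpr, fitting all groups of an experiment together. Differences between experiments were fitted over the 12 untagged libraries and 18271 genes. A call needs an adjusted p (Benjamini-Hochberg, whole table) under 0.05. The SE of a log2 change was taken from its F statistic, and ± values are SD over 3 libraries. A group is at the floor with 3 counts or fewer in each library. Reads carry no stated molecular identifiers, so depth gives counting precision only. The fits were tested on simulated data.

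Genes were named by rule: the 12 largest changes each way with a mean log2 CPM of at least 2 and no overlap between groups, the 10 largest shares of the IPs, list members, the targeted genes, and the 5 largest differences each way between experiments or with the tag. The rule, the lists and the members were chosen with earlier results of these data known. Genes were matched by symbol to RefSeq GRCm38.p6, with 15597 of 18772 matched, and positions come from it. Alternatives were RLE factors, library size alone, no filter, fewer groups, DESeq2 1.42.0, the replicate number as a block and each library left out. DESeq2 for lists in experiment 2 and counts at unadjusted p were added after seeing the data. Protein features, among them residues shared with HA, were not analysed here. Some genes that the rule would name are not reported here.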

Additional observations from a re-analysis of the deposited data

Results flagged for a closer look

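The change of IP against input in untagged cells differed between experiments 1 and 2 for 2066 genes by a test of the difference, and between tagged and untagged cells of experiment 1 for 10688. Both tests were edgeR interaction terms. Some genes named below were chosen for the size of their change in experiment 1, whose libraries the difference also uses. The others were chosen for the size of the difference itself, so their differences were selected to be large. Causes were not tested.

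Between experiments, gains were larger in experiment 1 for 10 of the 12 named genes. The log2 differences were 2.68 for Bcar1, 2.82 for Trp53bp1, 2.97 for Rab11fip5, 2.68 for Gpr179 and 2.19 for Efs. They were 3.1 for Fip1l1, 4.67 for Lama4, 1.55 for Cenpf, 3.42 for Lnx1 and 2.07 for Tubgcp4. Akap9, Etl4 and Cep350 differed by 4.46, 3.95 and 3.29. On the loss side, the mitochondrial differences were -0.87 for ND3, -1.1 for COX2, -0.86 for CYTB, -1.01 for COX3 and -0.87 for ND4. ENSMUSG00000101939 and ENSMUSG00000102070 differed by -0.97 and -1.09. Gm5113 differed by -0.9, Igf2 by -0.79 and Tmx4 by -0.87. Prom1, a membrane glycoprotein gene, and Chrm4, a muscarinic receptor gene, both differed by -1.07. Fhl4 differed by -1.57 and Prr14 by -1.26, but neither was called in experiment 1, at log2 -0.29 and 0.10. In experiment 2 Fhl4 was at 1.27 (adjusted p 0.0687 by edgeR) and Prr14 at 1.36.

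With the tag, the ratio of IP to input was lower for Bcar1 by a log2 difference of -2.01, Trp53bp1 of -1.99, Rab11fip5 of -2.14, Gpr179 of -2.11 and Efs of -2.09. It was lower for Fip1l1 at -2.27, Lama4 at -2.81, Magel2 at -1.78, Cenpf at -1.95, Lnx1 at -1.69 and Tubgcp4 at -1.51. Akap9 was at -2.36, Etl4 at -2.54 and Cep350 at -2.19. The ratio was higher with the tag for Tnrc6a by 8.34, Zbtb7a by 6.53, Zfp367 by 6.37, 9530068E07Rik by 6.26 and Zfp768 by 6.26.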

How the results depend on the processing

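In experiment 1 library size alone gave 10201 calls, 498 higher and 9703 lower, with 789 at least 2-fold. In experiment 2 it gave 574 calls with 464 lower, and for the difference between experiments 6960 calls, 471 higher and 6489 lower, with 480 at least 2-fold. The untagged groups alone gave 4612 calls in experiment 1, 2512 higher and 2100 lower. Asking for at least 2-fold left 377. Without the filter 30 genes were lower in experiment 2. The sign turned with library size alone for Snhg12 (-0.035), Uqcrc1 (-0.13) and Ndufv1 (-0.10), and the cause of none of these shifts was tested.

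Whether replicate numbers pair inputs with IPs is not stated, and with so few libraries the correlations of their deviations cannot decide it. For inputs and IPs of the same number these were 0.0792, 0.013 and 0.0868 in experiment 1 and 0.00132, 0.0567 and 0.157 in experiment 2. Those of unlike numbers had both signs. They lay between -0.0967 and 0.023 in experiment 1. The limits for experiment 2 were -0.138 and 0.071. The replicate block gave 1910 calls in experiment 1, and 266 with 159 lower in experiment 2. With the block the difference between experiments had 2276 calls and that with the tag 10333.

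Leaving out 1 library gave, in experiment 1, 1370 to 1818 calls, 869 to 1155 higher, 501 to 663 lower and 294 to 412 at least 2-fold. In experiment 2 the ranges were 70 to 220 calls, 63 to 147 higher and 4 to 73 lower. For the difference between experiments, 502 to 809 genes were lower, with 544 without input replicate 2 of experiment 1 and 502 without input replicate 2 of experiment 2. Of 104 genes examined, 66 kept their side of the threshold under each alternative run, and 34 lost a call in at least 1. Among the largest changes, Gm10222 lost its call without IP replicate 3 (adjusted p 0.0574), and Mir5114 on leaving out any of the 6 libraries (adjusted p up to 0.114). The remaining counts of the difference with the tag stayed within 1.5 times.

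Alternatives on proteins sharing residues with HA were not run, since no protein sequences were used here. With 3 libraries a group and a median SE of 0.15 in experiment 1, small changes of scarce RNAs were not detectable. Shares of a library do not give amounts of RNA.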

Other observations

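Outside the lists, other mRNAs with large gains in experiment 1 encode proteins of the actin cortex, and they were chosen after their values were seen. Iqgap1, a scaffold that binds actin and Cdc42, was at 45.9, 43.3 and 45.2 CPM in the inputs and at 246.9, 789.8 and 366.0 CPM in the IPs (log2 3.38, SE 0.30, edgeR adjusted p 1.67e-08). Dbn1, which encodes drebrin, went from 12.6, 13.2 and 13.5 CPM to 80.6, 229.6 and 104.4 CPM (log2 3.40, SE 0.32, adjusted p 3.27e-08). Svil, which encodes supervillin, went from 6.58, 8.64 and 7.84 CPM to 41.1, 100.9 and 57.0 CPM (log2 3.11, SE 0.30, adjusted p 4.25e-08). In all 3 genes IP replicate 2 was the highest and IP replicate 1 the lowest IP. Without IP replicate 2 the log2 changes of Iqgap1, Dbn1 and Svil were 2.77, 2.82 and 2.67, and all 3 were still called.

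Other gains, also chosen after their values were seen, were of nuclear proteins. Ttf1, the terminator of ribosomal RNA transcription, changed by log2 5.03 (SE 0.24, adjusted p 1.68e-13). Atad2, a bromodomain ATPase, was at 47.9, 39.9 and 38.9 CPM in the inputs and at 610.6, 582.2 and 379.8 CPM in the IPs, a log2 change of 3.63 (SE 0.23, adjusted p 3.66e-11). In experiment 2 Atad2 changed by 3.68 (SE 0.27, adjusted p 8.61e-10), and the difference between experiments was -0.05 (adjusted p 0.966). Wwp2, a HECT ubiquitin ligase, changed by 3.06 in experiment 1 and 2.67 in experiment 2, with a difference of 0.39 (adjusted p 0.5). A p that misses the threshold does not show that the experiments were alike for these 2 genes.

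Prr14, a gene for a protein that tethers heterochromatin to the nuclear lamina, was higher in experiment 2 alone among the 2 untagged comparisons. It was at 56.8, 55.3 and 55.8 CPM in input and 64.8, 58.2 and 57.1 CPM in IP of experiment 1 (log2 0.10, adjusted p 0.498). In experiment 2 it was at 42.4, 43.3 and 44.9 CPM in input and 147.2, 69.5 and 119.4 CPM in IP (log2 1.36, adjusted p 1.10e-06). The difference was tested (-1.26, SE 0.23, adjusted p 0.000843), and Prr14 was chosen for the size of that difference.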
